A study of Homo sapiens with 6 samples.

Results

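Caveolin and actin cytoskeleton genes were followed in nascent RNA of HCT116 cells, an established human colorectal carcinoma line, after knockdown or inhibition of GSTO1, an atypical glutathione transferase. The 10 genes were CAV1 and CAV2, which encode the caveolins, the actins ACTB and ACTG1, and the actin-binding genes ACTN1, VCL, FLNA, TPM1, TPM4 and MYH9. All 10 were found among the 22984 sense-strand gene rows of each library. They were chosen by their measured values in these libraries, with the fall of CAV1 and CAV2 after siGSTO1 already known, so every difference of these genes from control is given as a description, with no test.

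In Bru-seq, RNA made during 30 min of bromouridine labelling is captured and sequenced, so reads over exons and introns report ongoing transcription. The 6 libraries were 2 controls given 0.01% DMSO for 4 h, 1 of cells given GSTO1 siRNA at 10 nM for 24 h (siGSTO1), 1 each of cells given the chloroacetamide GSTO1 inhibitor C1-27 at 1 µM for 4 h and for 24 h, and 1 of cells given C1-14, which the study names an inactive analogue, at 10 µM for 4 h. Neither a non-targeting siRNA nor a 24 h DMSO library was analysed here. Delivery of siRNA thus cannot be told apart from the knockdown in siGSTO1, nor the longer time from either 24 h treatment. Levels are given as RPKM, the reads of a gene scaled to its length in kilobases and to the mapped reads of the library. A treated library was compared with the mean of both DMSO libraries by a ratio of RPKM, and 1.4-fold was the threshold for a count of genes. No treatment had a second library, and nothing in the labels says whether the DMSO replicates were separate cultures.

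Caveolae are flask-shaped pits of the plasma membrane. Caveolins, inserted in the inner leaflet, build their coat together with cavins, and CAV2 needs CAV1 to reach the cell surface. The actin genes feed the filament network below that membrane. α-Actinin and filamin crosslink the filaments, vinculin ties them to adhesion sites, tropomyosins run along them, and non-muscle myosin pulls on them. Many actin cytoskeleton genes are classical targets of serum response factor, which binds the CArG box.

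RefSeq promoter windows (GRCh38.p14) matched 9 of the 10 genes. ACTB had no matching window and was not searched, so nothing is said of motifs at its promoter. For the 9, the 250 bases before the listed start were searched on both strands. The motifs were the CArG box of serum response factor, the TEAD motif GGAATG and the GC box GGGCGG. Where several starts were listed for a gene, the first one was used. A CArG box was present in 3 of the 9, ACTG1, FLNA and TPM4, against 1.14% of 27305 promoters of the same length. GGAATG was present in VCL and MYH9, 2 of the 9, against 11.9% of promoters. A GC box was present in all 9, against 42.3%, in windows that were 61.2% to 83.2% G and C. The windows of the caveolin pair are shown because these genes had the lowest ratios of the set after siGSTO1, and those of ACTG1, FLNA, TPM4, VCL and MYH9 because they hold a match. They lie at chr7:116524759-116525008 on the plus strand (CAV1), chr7:116499488-116499737 on the plus strand (CAV2), chr17:81512800-81513049 on the minus strand (ACTG1), chrX:154374635-154374884 on the minus strand (FLNA), chr19:16067288-16067537 on the plus strand (TPM4), chr10:73997866-73998115 on the plus strand (VCL) and chr22:36387968-36388217 on the minus strand (MYH9). Each runs 5′ to 3′ towards the start, with the CArG box or GGAATG in capitals; the caveolin windows hold neither.
CAV1: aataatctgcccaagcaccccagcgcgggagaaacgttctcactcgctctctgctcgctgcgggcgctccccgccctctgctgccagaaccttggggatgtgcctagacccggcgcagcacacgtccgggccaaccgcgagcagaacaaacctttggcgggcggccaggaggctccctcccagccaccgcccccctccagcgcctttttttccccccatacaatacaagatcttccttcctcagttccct
CAV2: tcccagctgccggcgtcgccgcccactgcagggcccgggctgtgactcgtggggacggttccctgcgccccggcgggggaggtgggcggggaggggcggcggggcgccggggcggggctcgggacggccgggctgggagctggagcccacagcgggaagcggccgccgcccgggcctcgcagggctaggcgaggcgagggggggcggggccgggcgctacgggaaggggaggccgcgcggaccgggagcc
ACTG1: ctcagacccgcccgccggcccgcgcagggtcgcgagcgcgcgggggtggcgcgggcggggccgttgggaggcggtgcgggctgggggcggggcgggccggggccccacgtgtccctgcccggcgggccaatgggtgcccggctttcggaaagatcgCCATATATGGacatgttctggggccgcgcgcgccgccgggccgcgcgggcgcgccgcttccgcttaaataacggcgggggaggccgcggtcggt
FLNA: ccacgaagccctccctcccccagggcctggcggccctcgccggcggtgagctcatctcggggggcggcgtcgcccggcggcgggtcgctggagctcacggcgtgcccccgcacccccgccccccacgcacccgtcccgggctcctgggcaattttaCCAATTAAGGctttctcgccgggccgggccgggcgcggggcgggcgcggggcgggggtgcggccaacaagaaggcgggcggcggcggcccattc
TPM4: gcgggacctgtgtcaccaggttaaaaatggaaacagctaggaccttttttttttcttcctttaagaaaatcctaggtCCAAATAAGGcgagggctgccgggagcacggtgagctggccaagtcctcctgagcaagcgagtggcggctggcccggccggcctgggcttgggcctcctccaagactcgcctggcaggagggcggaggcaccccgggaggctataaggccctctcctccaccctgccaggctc
VCL: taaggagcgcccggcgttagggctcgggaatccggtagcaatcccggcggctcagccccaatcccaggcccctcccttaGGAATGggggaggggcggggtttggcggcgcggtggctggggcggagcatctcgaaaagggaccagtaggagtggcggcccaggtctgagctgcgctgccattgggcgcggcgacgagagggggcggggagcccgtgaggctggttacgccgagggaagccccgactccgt
MYH9: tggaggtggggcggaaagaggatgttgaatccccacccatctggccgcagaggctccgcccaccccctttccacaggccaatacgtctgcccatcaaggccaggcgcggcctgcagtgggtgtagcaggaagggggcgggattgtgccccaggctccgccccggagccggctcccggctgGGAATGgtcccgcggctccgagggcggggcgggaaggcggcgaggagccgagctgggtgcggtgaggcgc
The CArG box of ACTG1 and that of FLNA each began 94 bases before the start, and that of TPM4 began 173 bases before it. GGAATG began 171 bases before the start of VCL and 70 before that of MYH9. These are matches of letters, and binding at them was not measured here.

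Sense counts came to between 18112861 and 36841146 per library, with DMSO replicate 1 the shallowest, and counts of single members ran from 115 (TPM1, DMSO replicate 1) to 22456 (CAV1, DMSO replicate 2). The DMSO libraries stood apart from each other. Of 7816 genes past the filter of a mean above 0.5 RPKM and a length over 300 bp, 16.2% were at least 1.4-fold lower and 2.81% at least 1.4-fold higher in DMSO replicate 2 than in replicate 1, and the SD of the log2 ratio was 0.382. GSTO1 itself had 3.51 and 3.72 RPKM in DMSO and 2.70 with siGSTO1, 0.747 of the DMSO mean, and between 3.78 and 4.21 with the compounds. Nascent RNA does not report how much mature GSTO1 mRNA or protein was left. The epithelial markers EPCAM, KRT8 and KRT18 were transcribed in every library and CDH1 and CDX2 at a low level, while KRT20 and VIL1 were below 0.05 RPKM throughout. Of the markers of other cell types, all 3 of muscle, 5 of 6 of fibroblasts, 2 of 3 of endothelium and 2 of 3 of leukocytes stayed below 0.05 RPKM in every library, and the summed fibroblast markers reached at most 0.315 RPKM.

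By their mean level in DMSO the members ran from ACTG1, 38.2 ± 9.67 RPKM (SD, n = 2), and ACTB, 20.1 ± 8.04, through CAV1, 11.2 ± 5.53, CAV2, 9.59 ± 3.49, VCL, 3.10 ± 0.710, MYH9, 2.11 ± 0.0583, TPM4, 1.53 ± 0.0851, ACTN1, 1.15 ± 0.146, and FLNA, 0.868 ± 0.342, to TPM1, 0.207 ± 0.0559. Between neighbours in this order the ranges of both DMSO values overlapped for ACTB and CAV1, for CAV1 and CAV2, and for ACTN1 and FLNA, so these are not ordered beyond their spread. TPM1 was the single member below the 0.5 RPKM filter and was left out of each count against the threshold; the other 9 passed it in all 4 comparisons.

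**Figure D1:**
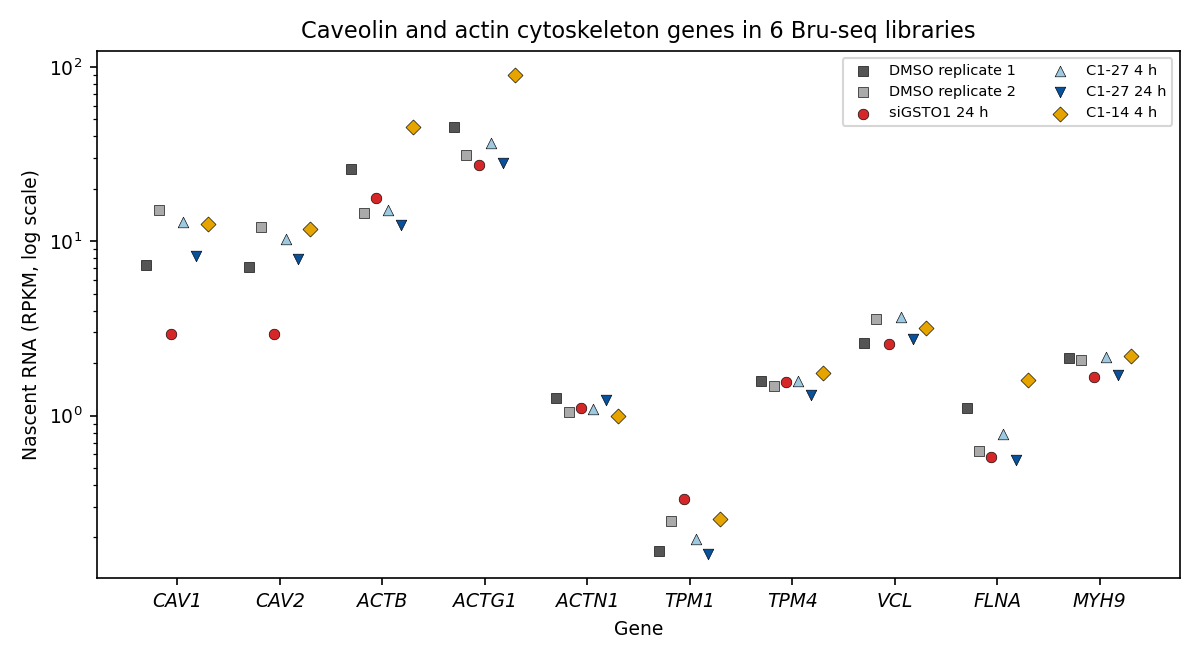
Nascent RNA of each member (RPKM, logarithmic vertical axis) in the 6 libraries, with 1 point per library. The red siGSTO1 points of CAV1 (2.95) and CAV2 (2.92) lie below all other libraries, and the yellow C1-14 points of ACTB (45.2), ACTG1 (90.2) and FLNA (1.60) lie above them.

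CAV1, the main structural protein of caveolae, lies at chr7:116164839-116201239 on the plus strand in hg19 and spans 36.4 kb. It had 7.30 and 15.1 RPKM in DMSO replicates 1 and 2, 2.95 with siGSTO1, 12.9 and 8.21 with C1-27 at 4 h and 24 h, and 12.6 with C1-14. The siGSTO1 library was below both controls, and the other treated libraries lay between them. The siGSTO1 value was 3.80-fold lower than the DMSO mean, at 40.4% of replicate 1 and 19.5% of replicate 2. In a bulk culture, fewer cells transcribing a gene and less transcription per cell cannot be told apart.

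CAV2, its partner in the caveolin complex, starts 25.2 kb upstream on the same strand (chr7:116139655-116148595, 8.94 kb). It had 7.13 and 12.1 RPKM in DMSO, 2.92 with siGSTO1, 10.3 and 7.94 with C1-27 at 4 h and 24 h, and 11.7 with C1-14. As for CAV1, only the siGSTO1 library was outside the DMSO range, 3.28-fold below the DMSO mean. The level of CAV1 over that of CAV2, both per length, stayed between 1.01 and 1.25 in the 6 libraries. With C1-27 at 24 h both were lower than at 4 h, CAV1 at 0.639 and CAV2 at 0.773 of the 4 h level, which is a ratio of single libraries.

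The transcribed genes nearest to the pair did not share that low value. TES, 241 kb upstream of CAV2, encodes a focal adhesion LIM protein and had 2.65 and 3.38 RPKM in DMSO and 3.39 with siGSTO1, 1.13 times the mean. MET, 111 kb downstream of CAV1, encodes the hepatocyte growth factor receptor and had 9.01 and 9.45 RPKM in DMSO and 8.10 with siGSTO1, 0.877 times the mean. With the compounds TES ran from 0.934 to 1.06 and MET from 0.876 to 0.928 of the DMSO mean. Both are the only genes within 250 kb of the pair that passed the filter.

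**Figure D2:**
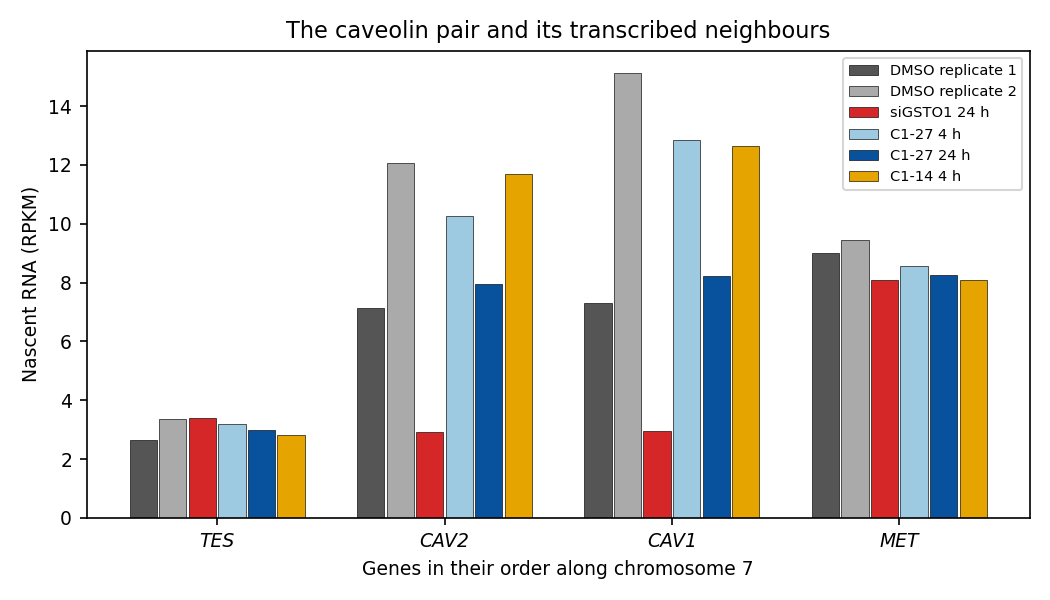
Nascent RNA (RPKM, from 0) of TES, CAV2, CAV1 and MET in their order on chromosome 7, with 1 bar per library. With siGSTO1 (red) CAV2 and CAV1 stand at 2.92 and 2.95 RPKM, while TES and MET stand at 3.39 and 8.10.

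ACTB and ACTG1 encode the cytoplasmic β- and γ-actins, which form most filaments of non-muscle cells. Both are short, 3.45 and 2.90 kb, and how reads shared between the 2 actins and their many processed pseudogenes were assigned is not given in the sources used here, so their levels are uncertain to that extent. ACTB (chr7:5566779-5570232, minus strand) had 25.8 and 14.4 RPKM in DMSO, 17.7 with siGSTO1, 15.1 and 12.4 with C1-27 at 4 h and 24 h, and 45.2 with C1-14. ACTG1 (chr17:79476997-79479892, minus strand) had 45.0 and 31.4 RPKM in DMSO, 27.5 with siGSTO1, 36.4 and 27.9 with C1-27 at 4 h and 24 h, and 90.2 with C1-14. For both, C1-14 was far above the DMSO range and C1-27 at 24 h was below it; siGSTO1 was below it for ACTG1 and inside it for ACTB. The C1-14 level was 2.24 times the DMSO mean for ACTB, at 1.75 and 3.13 times the single replicates, and 2.36 times for ACTG1, at 2.00 and 2.88 times.

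FLNA, encoding the large crosslinker filamin A, followed the actins (chrX:153576900-153603006, minus strand, 26.1 kb). It had 1.11 and 0.626 RPKM in DMSO, 0.579 with siGSTO1, 0.787 and 0.558 with C1-27 at 4 h and 24 h, and 1.60 with C1-14. The siGSTO1 and C1-27 24 h libraries were just below the lower control, and C1-14 was 1.84 times the DMSO mean. ACTN1, encoding the crosslinker α-actinin-1 (chr14:69340840-69446083, minus strand, 105 kb), moved little. It had 1.25 and 1.05 RPKM in DMSO, 1.11 with siGSTO1, 1.09 and 1.23 with C1-27 at 4 h and 24 h, and 0.992 with C1-14. Only C1-14 was outside its DMSO range, at 0.862 of the mean.

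VCL, encoding vinculin of adhesion sites (chr10:75757872-75879914, plus strand, 122 kb), had 2.59 and 3.60 RPKM in DMSO, 2.56 with siGSTO1, 3.69 and 2.75 with C1-27 at 4 h and 24 h, and 3.19 with C1-14. Only siGSTO1 and C1-27 at 4 h were outside the DMSO range, the one 0.987 of the lower control and the other 1.03 times the higher. MYH9, encoding the heavy chain of non-muscle myosin IIA (chr22:36677323-36784063, minus strand, 107 kb), had the closest DMSO values of the set in relative terms, 2.15 and 2.07 RPKM. It had 1.67 RPKM with siGSTO1, 2.18 and 1.71 with C1-27 at 4 h and 24 h, and 2.18 with C1-14. Both 24 h treatments were below the controls, at 0.789 (siGSTO1) and 0.809 (C1-27) of the DMSO mean, and both 4 h treatments were within 1.05 times of each control.

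The tropomyosins stabilise filaments and set which myosins bind them. TPM4 (chr19:16178317-16213813, plus strand, 35.5 kb) had 1.59 and 1.47 RPKM in DMSO, 1.56 with siGSTO1, 1.58 and 1.31 with C1-27 at 4 h and 24 h, and 1.76 with C1-14. C1-27 at 24 h was below both controls and C1-14 above both, at 0.855 and 1.15 of the mean. TPM1 (chr15:63334838-63364113, plus strand, 29.3 kb) was near the floor of these data. It had 0.168 and 0.247 RPKM in DMSO, 0.333 with siGSTO1, 0.197 and 0.161 with C1-27 at 4 h and 24 h, and 0.254 with C1-14. Its level with siGSTO1, from 256 counts, was the highest of the 6 libraries and 1.61 times the DMSO mean. Against the pooled DMSO counts the ratio was 1.53, with an exact Clopper-Pearson interval (95%) of 1.30 to 1.79, which covers counting error only.

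**Figure D3:**
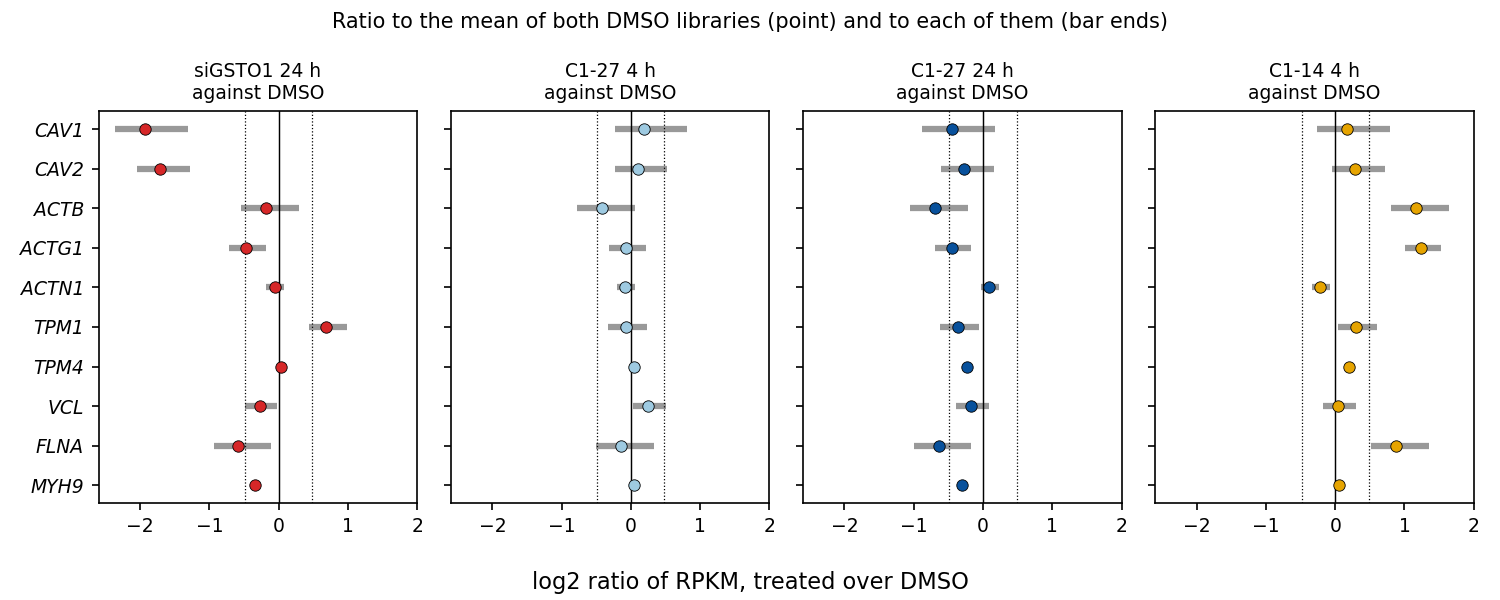
Ratio of each member's RPKM to the mean of both DMSO libraries (points, log2 scale) in the 4 comparisons; the ends of each grey bar are the ratios to the single DMSO libraries and dotted lines mark 1.4-fold. With siGSTO1 CAV1 (-1.93) and CAV2 (-1.71) lie left of the lines with their whole bars, and with C1-14 ACTB (1.17), ACTG1 (1.24) and FLNA (0.88) lie right of them.

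With siGSTO1, 3 of the 9 members past the filter were at least 1.4-fold lower than the DMSO mean, CAV1, CAV2 and FLNA, beside 6.47% of 8129 genes. None was 1.4-fold higher, beside 10.4% of genes. These counts restate values that were known when the genes were chosen. FLNA, 1.50-fold lower, was the member just past the threshold and ACTG1, 1.39-fold lower, the one just short of it. CAV1 and CAV2 were past the threshold against each DMSO library alone; FLNA was not, at 0.522 of replicate 1 and 0.925 of replicate 2. The median log2 ratio of the 10 members was -0.31 (-0.46 to -0.15 against single DMSO libraries), beside -0.0007 over all genes past the filter. Rescaling by TMM moved the median of all genes by -0.11 and by DESeq2 size factors by -0.15, and turned 526 lower and 849 higher genes into 910 and 556, or 1097 and 491. With the size factors, or without DMSO replicate 2, 5 members were lower. Without DMSO replicate 1, 3 were, now CAV1, CAV2 and VCL, the last at 0.712 of replicate 2. For counts of members against a single control, here and below, the share over all genes is not given. Such counts therefore have no background beside them.

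With C1-27 at 4 h, 0 of the 9 members were 1.4-fold lower, beside 2.17% of 7658 genes, and 0 were higher, beside 0.444%. The ratios to the DMSO mean ran from 0.749 (ACTB) to 1.19 (VCL), and the median log2 ratio of the 10 members was -0.01, beside -0.01 over all genes. This count rested on the averaging of the controls. Against DMSO replicate 1 alone 2 members were lower (ACTB and FLNA) and 3 higher (CAV1, CAV2 and VCL). Against replicate 2 alone none passed in either direction. The shares of all genes printed above are for the mean of both controls and do not apply to these counts.

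With C1-27 at 24 h, 2 of the 9 members were 1.4-fold lower, ACTB at 0.617 and FLNA at 0.642 of the DMSO mean, beside 3.45% of 7910 genes, and 0 were higher, beside 3.22%. No member was past the threshold against each DMSO library alone. Without DMSO replicate 1 the members 1.4-fold lower were CAV1 and CAV2, with ACTB and FLNA at 0.859 and 0.890 of replicate 2, and without DMSO replicate 2 they were ACTB, ACTG1 and FLNA. The median log2 ratio of the 10 members was -0.34, beside 0.03 over all genes, and 9 of the 10 ratios were below 1, ACTN1 at 1.07 being the other. Against DMSO replicate 1 alone CAV1 (1.12), CAV2 (1.11) and VCL (1.06) were above 1 and ACTN1 (0.978) below it. Rescaling changed the count of 273 lower and 255 higher genes to 354 and 191 (TMM) or 370 and 168 (size factors), and 4 members were then lower.

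With C1-14, 3 of the 9 members were 1.4-fold higher, ACTB, ACTG1 and FLNA, beside 3.69% of 7776 genes, and 0 were lower, beside 0.977%. All 3 were past the threshold against each DMSO library alone. Without DMSO replicate 2, CAV1 and CAV2 also passed, making 5, at 1.73 and 1.64 times replicate 1. The median log2 ratio of the 10 members was 0.24, beside 0.01 over all genes, and against the single DMSO libraries it was 0.56 (replicate 1) and 0.059 (replicate 2). At 4 h C1-14 was given at 10 µM and C1-27 at 1 µM, so the values stand side by side without a comparison: ACTG1 had 90.2 RPKM with C1-14 and 36.4 with C1-27, ACTB 45.2 and 15.1, FLNA 1.60 and 0.787, and CAV1 12.6 and 12.9.

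Gene length moved with these differences. In length classes set after the values were seen, 22.4% of the 1048 genes of up to 5 kb were 1.4-fold higher with C1-14, against 1.55% of those of 5 to 30 kb, 0.0402% of 30 to 100 kb and 0.184% of over 100 kb. ACTB and ACTG1 are in the first class and FLNA in the second. The DMSO libraries were split the same way, since 40% of genes of up to 5 kb were 1.4-fold lower in replicate 2 than in replicate 1 and 1.53% of genes over 100 kb. Between these replicates ACTB was at 0.560, ACTG1 at 0.696 and FLNA at 0.564, while CAV1 was at 2.07 and CAV2 at 1.69. With C1-27 at 24 h 11.6% of genes of up to 5 kb were 1.4-fold lower, and with siGSTO1 8.17% of them were lower and 21.8% higher. The keratin genes KRT8 and KRT18 were also highest with C1-14, at 10.5 and 11.9 RPKM, and had 9.60 and 8.18 in DMSO replicate 1 and 5.81 and 4.81 in replicate 2. The part of gene length in the actin and FLNA values was not tested. CAV2, at 8.94 kb, and CAV1, at 36.4 kb, are in different length classes, and the part of length in their values was not tested either.

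**Figure D4:**
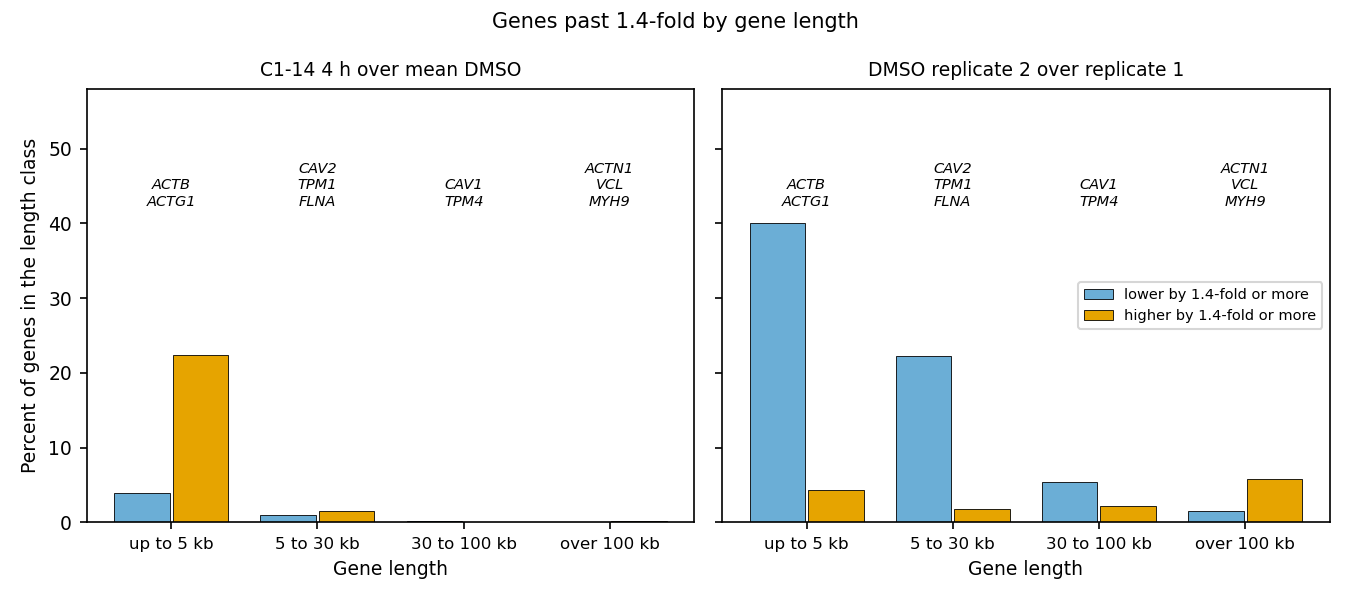
Percent of genes in 4 length classes that were at least 1.4-fold lower (blue) or higher (yellow), with C1-14 against the DMSO mean and in DMSO replicate 2 against replicate 1; the members of each class are written above the bars. In the class of up to 5 kb, 22.4% were higher with C1-14 and 40% were lower in DMSO replicate 2.

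The genes whose pattern was most like that of CAV1 were sought among 3767 genes, by the root mean square distance of log2 RPKM. Each gene was centred on its mean over the 6 libraries. The candidates passed the filter in every comparison and had an SD over the 6 libraries of at least the median SD. Less variable genes were thus left out, and the ranks of members below are against this pool. CRIM1, a transmembrane protein with cysteine-rich repeats, was closest at 0.05, followed by CAV2 at 0.13, S100A10, the annexin A2 partner, at 0.17, CLIP4 at 0.18 and GDA, guanine deaminase, at 0.19. CRIM1 had 2.64 and 5.09 RPKM in DMSO and 1.01 with siGSTO1, 0.261 of the mean, and S100A10 had 2.40 and 3.42 in DMSO and 0.840 with siGSTO1, 0.289 of the mean. The next member was VCL, at rank 503. For VCL the closest were VTI1A at 0.04 and then RNASEH2B, BZW2, TMEM111 and FAM54A at 0.05 to 0.06, and the closest member was MYH9 at rank 476. These distances describe 6 libraries that share their depth and length effects, and carry no test.

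**Figure D5:**
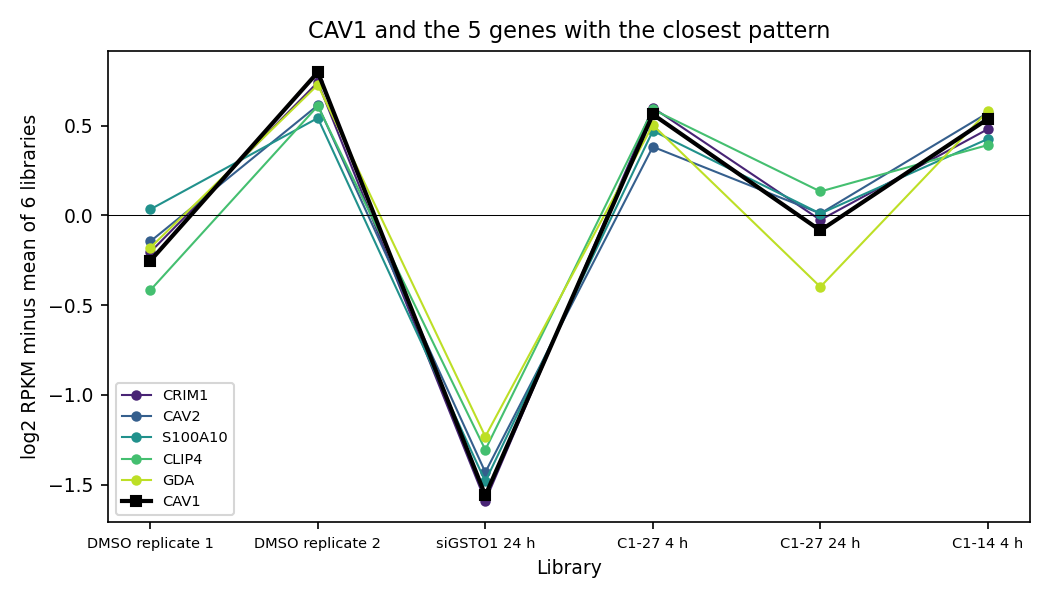
Log2 RPKM of CAV1 (black) and the 5 genes closest to it, each minus its mean over the 6 libraries, with 1 point per library. All 6 lines reach their lowest point with siGSTO1 and lie higher in DMSO replicate 2 than in replicate 1.

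Other genes of these structures were taken from 7 textbook lists with 144 further genes, of which 132 had enough counts for edgeR's quasi-likelihood test. The lists were set with earlier results of these data known, which limits what the p-values below can show. The test used the DMSO pair as its one measure of spread, and p-values were adjusted over all 14428 genes tested; they measure only the spread between those libraries, which may be technical. With siGSTO1, 4 of the 132 fell, beside 1.16% of all genes tested, and 2 rose, beside 3%. With C1-27 at 4 h none fell, beside 0%, or rose, beside 0.0139%, also at an unadjusted p under 0.05 and with DESeq2. At 24 h none fell, beside 0.118%, or rose, beside 0.159%; 8 had an unadjusted p under 0.05 for a lower and 1 for a higher level, and DESeq2 called none. With C1-14 none fell, beside 0.00693%, and 1 rose, beside 0.111%. At an unadjusted edgeR p under 0.05, 18 of the 132 were lower and 15 higher with siGSTO1. With C1-14 it was 0 lower and 4 higher. The share of all genes at an unadjusted p under 0.05 is not given, so none of these unadjusted counts has a background beside it. The median log2 fold change over the 132 genes by edgeR was -0.09, -0.02, 0.0007 and 0.05 in the order siGSTO1, C1-27 4 h, C1-27 24 h and C1-14, beside 0.01, -0.02, -0.002 and -0.001 over all genes.

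In the caveola coat list, 1 of 9 genes tested fell with siGSTO1. This was PTRF, cavin-1, which assembles the coat with CAV1. It had 1.53 and 1.27 RPKM in DMSO and 0.748 with siGSTO1, a log2 fold change of -1.02 ± 0.32 (SE, edgeR adjusted p = 0.038). It had 1.14 and 0.906 RPKM with C1-27 at 4 h and 24 h and 1.61 with C1-14. The coat's remodelling ATPase EHD2 had 0.741 and 0.514 RPKM in DMSO and 0.624 with siGSTO1, inside the DMSO range. The membrane-bending PACSIN2 had 0.852 and 0.742 RPKM in DMSO and 0.807 with siGSTO1, also inside it. The median log2 ratio of the 7 coat genes past the RPKM filter was -0.01.

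In the focal adhesion list, 2 of 27 genes tested fell and 1 rose with siGSTO1. PDLIM1, a PDZ and LIM protein that binds α-actinin, had 0.546 RPKM, 0.537 of the DMSO mean (log2 -1.01 ± 0.27, edgeR adjusted p = 0.00998). PARVA, α-parvin of the integrin-linked kinase complex, was at 0.601 of the mean (log2 -0.85 ± 0.25, edgeR adjusted p = 0.022). TLN2, the second talin, rose from 0.0531 and 0.0331 RPKM in DMSO to 0.119 (log2 1.36 ± 0.38, edgeR adjusted p = 0.012), a low level over 197 kb. TLN1, the main talin of most cells, had 1.31 and 0.798 RPKM in DMSO and 1.16 with siGSTO1, inside the DMSO range. The list's median log2 ratio was -0.23, over 21 genes.

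Among 18 actins and myosins 1 rose with siGSTO1, ACTA2, the smooth muscle α-actin, at 0.129 RPKM and 191 counts against 38 and 70 counts in DMSO (log2 2.00 ± 0.51, edgeR adjusted p = 0.0042). The muscle markers DES, MYH11 and CNN1 stayed below 0.05 RPKM, but their summed level was highest with siGSTO1, at 0.0262 against 0.00167 and 0.00845 in DMSO. In counts, MYH11 stood at 19 there and at 6 and 8 in the controls, but also at 19 with C1-27 at 24 h. DES stood at 4 against 0 and 1, and CNN1 at 1 against 0 and 2. Among the fibroblast markers COL1A1 had 49 counts against 19 and 15, and DCN 2 against 0 and 0. COL1A2 had 0 in all 3 of these libraries. COL3A1 and LUM each had 0 against 0 and 1, and PDGFRB 0 against 0 and 4. The part of these markers in the ACTA2 value was not tested. No gene of the 8 other tropomyosins and tropomodulins or of the 19 crosslinkers passed the test in any comparison.

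Of the 32 genes of actin assembly and turnover, 1 passed in any comparison. TMSB10, thymosin β10, which sequesters actin monomers, rose with C1-14 to 35.2 RPKM, from 18.6 and 8.0 in DMSO (log2 1.45 ± 0.32, edgeR adjusted p = 0.0082). It spans 1.04 kb and so belongs to the shortest length class. It had 24.1 RPKM with siGSTO1 and 9.89 and 10.0 with C1-27 at 4 h and 24 h. With DESeq2 neither TMSB10 (adjusted p = 1.0), ACTA2 (0.15) nor TLN2 (0.12) passed, and of the 4 genes that fell by edgeR 2 passed, PDLIM1 (0.048) among them, while PTRF (0.089) and PARVA (0.087) did not. PDLIM1, PTRF, ACTA2, TLN2 and TMSB10 also passed with RLE scaling and in the fit without a count filter, and PARVA with RLE scaling only. The tropomodulin gene TMOD2, higher with siGSTO1 at 0.260 RPKM, passed in these fits alone (edgeR adjusted p = 0.042 with RLE, 0.035 without a count filter).

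Tubulins and lamins, filament genes outside the actin system, were set beside these lists. With siGSTO1, 1 of 19 tested fell, TUBB6, a β-tubulin, at 0.566 of the DMSO mean (log2 -0.94 ± 0.27, edgeR adjusted p = 0.018). The 3 that rose were led by TUBA1A, at 87 counts against 12 and 13 in DMSO (log2 2.92 ± 0.64, edgeR adjusted p = 0.00055), and TUBB3, the neuronal β-tubulin, at 2.66 times the mean (log2 1.30 ± 0.34, edgeR adjusted p = 0.0062). None passed with C1-27 or C1-14. Of these 4 genes none passed with DESeq2, where their adjusted p ran from 0.065 to 0.20.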

How the data were processed

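Bru-seq libraries of HCT116 cells, 1 file per library, were used as deposited. Per the labels, processing notes name CASAVA 1.8.2, Bowtie 0.12.8, TopHat 1.4.1, bedtools 2.16.2 and hg19, without roles; the annotation is not given in the sources used here. The authors deposited expected counts of strand-specific reads per gene over exons and introns, a signal that is this count per bp, and RPKM values scaled to 23388425 to 46017052 reads per library. Antisense rows held 2.85% to 3.96% of counts.

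RPKM ratios used no pseudocount, genes over 300 bp and a mean RPKM above 0.5. The quasi-likelihood test of edgeR 4.0.16 (R 4.3.3, TMM, Benjamini-Hochberg) was run on counts rounded to whole numbers for 14428 genes with at least 10 counts in at least 2 libraries, in 5 groups, with 1 residual degree of freedom from the DMSO pair and a common dispersion of 0.0381. It was tested on simulated data of 14428 genes with 200 changed 3-fold in the siGSTO1 comparison. At a dispersion of 0.01 it recovered 200 with 8 false calls, and at 0.05 it recovered 121 with 7. Both simulated controls were drawn from the same means, without the difference by gene length seen in the real DMSO pair. The false calls of the simulation thus do not measure the error in these data. DESeq2 1.42.0, RLE scaling, no count filter, single DMSO libraries, a pseudocount of 0.1 RPKM and no RPKM filter were alternatives. Python 3.11.15 was used for the rest.

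The members and the gene lists were chosen with earlier results of these data known. Named further genes were, per comparison and direction, up to 5 of the cytoskeleton lists and up to 2 of the tubulin list passing edgeR at an adjusted p under 0.05, in order of fold change; 1 list is counted in the totals and otherwise not reported here. EHD2, PACSIN2, TLN1, KRT8 and KRT18 were named after their values were seen. Promoter windows are RefSeq GRCh38.p14, and no coordinate was converted between builds.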

Additional observations from a re-analysis of the deposited data

Results flagged for a closer look

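The antisense strand of TPM4 is outside the sense measurement used above. It held 0.0322 RPKM with siGSTO1 (30 counts) and 0.0299 RPKM with C1-27 at 4 h (41 counts). With C1-27 at 24 h it held 0.0214 RPKM (35 counts), and with C1-14 0.0122 RPKM (15 counts). All but the C1-14 value were above both DMSO libraries (0.0181 and 0.0152 RPKM, 15 and 22 counts). MYH9 was above both controls with C1-27 at 4 h and below both at 24 h, and the 24 h level was 0.784 of the 4 h level. A ratio below 1 was not particular to MYH9. It was lower still for CAV1 (0.639), FLNA (0.708), VCL (0.746), ACTG1 (0.768) and CAV2 (0.773), and only ACTN1 (1.13) was above 1. These ratios rest on 1 library each and the differences were not tested.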

How the results depend on the processing

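Of the 40 ratios of single members to DMSO, 18 changed sign in at least 1 setting, all of them within 0.45 of 0 on the log2 scale with the mean of both controls: 11 without DMSO replicate 1, 7 without DMSO replicate 2, and TPM4 with siGSTO1 under both rescalings also. No ratio past 1.4-fold changed sign. The median for C1-27 at 4 h, -0.013, turned positive without either DMSO library and under TMM (0.0161) and size factors. Leaving out a DMSO library gave 3 to 5 members lower with siGSTO1, 0 to 2 lower and 0 to 3 higher with C1-27 at 4 h, and 3 to 5 higher with C1-14; the median log2 ratio of the members then ran from 0.00449 to 0.0588 with C1-27 at 4 h from -0.25 to -0.17 at 24 h, from -0.46 to -0.15 with siGSTO1 and from 0.059 to 0.56 with C1-14. TMM scaling gave 4 members lower with C1-27 at 24 h (median -0.39), and DESeq2 size factors gave 5 lower with siGSTO1, 4 lower with C1-27 at 24 h (median -0.41) and a median of 0.038 with C1-27 at 4 h. Without the RPKM filter 1 member, TPM1, was higher with siGSTO1, and a pseudocount of 0.1 RPKM gave a median of -0.28 with C1-27 at 24 h. Of the ratios of single members under these settings, 233 moved by less than the SD of the DMSO pair and 7, all under rescaling, by more. The 233 are no measure of stability. Leaving out 1 of the 2 controls moves a ratio of these members by less than that SD by construction. Dropping the RPKM filter leaves single ratios unchanged.

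For the further genes with siGSTO1, DESeq2 called 2 lower and 0 higher, and the edgeR test without a count filter 2 lower; with C1-14 DESeq2 called 0 higher. Counting instead genes 1.4-fold away from each DMSO library, with no test, gave 7 lower and 7 higher with siGSTO1. It gave 1 and 1 with C1-27 at 24 h, and 2 higher with C1-14. The share of all genes under this rule is not given. Against the DMSO mean, 15 of 105 genes past the RPKM filter were lower and 15 higher with siGSTO1, beside 6.47% and 10.4% of all genes. The counts were 2 and 0 of 101 with C1-27 at 4 h, beside 2.17% and 0.444%. At 24 h they were 8 and 1 of 104, beside 3.45% and 3.22%. With C1-14 they were 0 and 7 of 101, beside 0.977% and 3.69%. The cause of the differences between these settings was not tested. The edgeR test was not run without a DMSO replicate, since no residual degree of freedom is then left. No paired analysis was possible because the treated groups share no replicate numbers beyond a single library each. Each treatment rests on 1 library, and TPM1 on 115 to 295 counts.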

Other observations

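The level of ACTG1 over that of ACTB, both per length, was 1.74 and 2.17 in DMSO replicates 1 and 2, 1.56 with siGSTO1, 2.41 and 2.25 with C1-27 at 4 h and 24 h, and 2.00 with C1-14. Antisense RNA over CAV2 was 0.182 to 0.273 RPKM and over VCL 0.0763 to 0.112 RPKM in the 6 libraries, while ACTB had no antisense count in any of them.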
